A study of Rattus norvegicus with 18 samples.

Results

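The CCAAT/enhancer-binding proteins (C/EBPs) are transcription factors that bind DNA as dimers through a basic region and a leucine zipper (bZIP). The genes Cebpa, Cebpb, Cebpd and Cebpg, which encode C/EBPα, C/EBPβ, C/EBPδ and C/EBPγ, were described in cultured rat glial cells exposed to amyloid-β (Aβ) fibrils, and are 4 of the 16704 gene symbols listed for both cell types. They were taken by symbol. Cebpb was chosen because its mRNA differed between Aβ42 and Aβ40 fibrils in these same microglia libraries, and the other members because they are its relatives. The difference between the fibrils in microglia is therefore given for all 4 genes as a description, with no test. All 4 genes had enough counts to be tested in every comparison.

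C/EBPα is best known for driving the myeloid and adipocyte programmes, and is present in resting microglia. C/EBPβ and C/EBPδ are induced by inflammatory signals such as interleukin-6 and interleukin-1 and activate cytokine and acute-phase genes, in glia as in liver and macrophages. C/EBPγ lacks an activation domain, pairs with other C/EBPs and with ATF4, and takes part in the amino acid stress response. The C/EBPβ mRNA is translated from alternative start codons into activating and inhibitory proteins, which mRNA counts cannot tell apart.

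Wild-type primary astrocytes and primary microglia were prepared from the cortex of Sprague–Dawley rat pups at postnatal day 2, were moved to serum-free medium, and were left untreated (control) or were exposed for 24 h to fibrils grown from Aβ42 or from Aβ40. The fibrils are aggregates of the Aβ peptides that accumulate in the brain in Alzheimer's disease. Each of the 6 groups had 3 libraries of polyadenylated RNA, 18 in all, and the values are counts of reads per gene. Microglia were detached from mixed glial cultures by shaking, so each culture can hold other glia, and no source used here gives the animals behind each library. The p-values therefore measure the spread between libraries, which may be technical.

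Counts on genes ranged from 3674043 to 19013919 per library in astrocytes and from 2271834 to 22274367 in microglia. In the astrocyte libraries the summed level of the 13 microglia markers was 461 to 599 CPM (counts scaled to a common library size) in controls and 117 to 134 with either fibril, and in the microglia libraries that of the 10 astrocyte markers was 245 to 292 in all groups. No defining marker of either cell type was at 0 in its own cultures. Sums of other marker lists also differed between the groups. In astrocyte libraries the astrocyte markers summed to 9060 to 11000 CPM in controls and 5830 to 6790 with fibrils, and the 8 oligodendrocyte-lineage markers to 1530 to 2420 and 1170 to 1310. In microglia libraries the 5 fibroblast markers summed to 55.3 to 67.7 CPM in controls and 119 to 162 with fibrils, the 4 endothelial markers to 159 to 172 and 34.5 to 102, with Cldn5 at 0, and the oligodendrocyte-lineage markers to 1950 to 2150 and 2170 to 2880. The 5 blood myeloid markers in microglia libraries summed to 0 to 0.386 CPM in controls and 3.99 to 14.2 with fibrils. The 4 neuron markers there summed to 151 to 168 and 195 to 226. In astrocyte libraries the fibroblast markers summed to 168 to 189 CPM in controls and 63.6 to 122 with fibrils. The neuron markers there summed to 38.8 to 61.2 and 23.2 to 33.2. The part of these marker sums in the changes of the C/EBP genes was not tested. A pair of libraries stood apart. Microglia Aβ42 replicate 1, with 2613723 counts, correlated at 0.961 with the other Aβ42 libraries (Pearson's r of log2 CPM) and at 0.973 to 0.981 with the Aβ40 libraries, whereas Aβ42 replicates 2 and 3 correlated at 0.996. Astrocyte control replicate 2 had the largest share of reads off genes, 34.2%. The log2 changes of the C/EBP genes that use either library are also given without it, or as the range with each library left out in turn.

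The 250 bases before the transcription start of Cebpb, Cebpa and Cebpg are shown because they are the letters next to the start of the 3 genes whose mRNA went different ways in microglia. They are RefSeq sequences of the GRCr8 assembly, 5′ to 3′ on the strand of the gene, in lower case with motif matches in capitals. The motifs searched on both strands were the cAMP-response half-site TGACG, the CCAAT box CCAAT, the TATA box TATAAA, the C/EBP site TTGCNNAA, the STAT site TTCNNNGAA and the GC box GGGCGG. The table had no entry for Cebpd.
Cebpb (chr3:176816755-176817004, plus strand): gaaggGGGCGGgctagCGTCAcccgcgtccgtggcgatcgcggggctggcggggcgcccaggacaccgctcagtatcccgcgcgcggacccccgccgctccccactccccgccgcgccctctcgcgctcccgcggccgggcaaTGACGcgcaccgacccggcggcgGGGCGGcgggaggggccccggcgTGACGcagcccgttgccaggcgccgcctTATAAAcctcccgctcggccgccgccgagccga
Cebpa (chr1:96896334-96896583, plus strand): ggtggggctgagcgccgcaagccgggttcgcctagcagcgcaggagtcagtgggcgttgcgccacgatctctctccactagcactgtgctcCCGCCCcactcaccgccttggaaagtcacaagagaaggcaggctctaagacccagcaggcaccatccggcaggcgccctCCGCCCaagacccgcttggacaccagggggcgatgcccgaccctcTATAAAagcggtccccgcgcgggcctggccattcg
Cebpg (chr1:96829737-96829986, minus strand): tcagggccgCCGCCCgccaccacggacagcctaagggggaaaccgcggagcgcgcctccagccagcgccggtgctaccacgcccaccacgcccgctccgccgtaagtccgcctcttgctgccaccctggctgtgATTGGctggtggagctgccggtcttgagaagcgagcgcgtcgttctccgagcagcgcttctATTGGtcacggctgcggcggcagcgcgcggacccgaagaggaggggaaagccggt

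The Cebpb window had a GC content of 80%, against 67.2% for Cebpa, 70.4% for Cebpg and a median of 52% over 27457 rat promoters of the same length. It held 3 cAMP-response half-sites, the last at 61 to 57 bases before the start, and TGACG occurred in 19% of all promoters. A TATA box lay at 33 to 28 bases before the start in Cebpb and at 35 to 30 in Cebpa. TATAAA occurred in 13.1% of promoters at any position of the window on either strand. Near this position on the strand of the gene, it occurred in 190 of 13772 plus-strand and 176 of 13685 minus-strand promoters. Cebpg had no TATAAA, and had 2 CCAAT boxes, which read ATTGG on the strand shown (34.3% of promoters). GC boxes (32.4% of promoters) numbered 2 in Cebpb, 2 in Cebpa and 1 in Cebpg. The letters of the C/EBP and STAT sites, found in 9.2% and 7.52% of promoters, were not in these 3 windows. Cebpa and Cebpg lie near each other on chromosome 1 in this assembly, with no protein-coding gene starting between them. A match of letters is a description and not a binding site.

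In untreated microglia, Cebpa and Cebpg mRNA were higher than in untreated astrocytes, and Cebpb and Cebpd mRNA were lower. All 4 members differed between the cell types at an adjusted p under 0.05, as did 68.8% of the 11581 genes tested. On the scale common to all 18 libraries, scaled CPM, the mean of Cebpa was 89.5 ± 6.99 in control microglia and 21.8 ± 4.85 in control astrocytes (SD, n = 3), a log2 difference of 2.03 (SE 0.29, edgeR adjusted p = 3.56e-06). Cebpg was 95.4 ± 2.62 against 39.8 ± 8.67, a log2 difference of 1.27 (SE 0.14, edgeR adjusted p = 1.18e-07). Cebpb was 16.6 ± 3.83 in microglia against 46.5 ± 23.8 in astrocytes, and the log2 difference was -1.47 (SE 0.37, edgeR adjusted p = 0.00154). Cebpd was 43.7 ± 1.83 against 113 ± 70.6, with a log2 difference of -1.37 (SE 0.37, edgeR adjusted p = 0.0027). The Cebpd groups overlapped because astrocyte control replicate 2 was at 31.9, and the log2 difference without that library was -1.80. Without it the differences were 1.87 for Cebpa, 1.46 for Cebpg and -1.78 for Cebpb.

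The intronless genes Cebpa, Cebpb and Cebpd can be set side by side per length, with RefSeq gene lengths of 2673, 1432 and 1139 bases, which may differ from those of the authors' annotation. Per kilobase on the common scale, control microglia had a level of 38.3 ± 1.63 CPM for Cebpd, 33.5 ± 2.61 for Cebpa and 11.6 ± 2.69 for Cebpb. With Aβ42 fibrils the level per kilobase was 160 ± 78.4 for Cebpb, 90.4 ± 25.2 for Cebpd and 9.08 ± 5.32 for Cebpa. The ranges of Cebpb and Cebpd overlapped, but Cebpb was the higher within each Aβ42 library. With Aβ40 fibrils, Cebpd at 51.9 ± 2.77 and Cebpb at 50.4 ± 5.25 overlapped again, and Cebpa was at 3.88 ± 0.39. In astrocytes Cebpd had the highest level per kilobase of the 3 genes in each group. It was 98.9 ± 62 in controls, a range that overlapped Cebpb at 32.5 ± 16.7, though Cebpd was higher within each control library. With Aβ42 and Aβ40 fibrils Cebpd was at 318 ± 68.8 and 345 ± 57.4. Cebpb was then at 123 ± 16.3 and 119 ± 13.5, with no overlap.

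Across the 6 groups on the common scale, with no correction for length, the highest Cebpb level was in Aβ42 fibril-treated microglia, at 229 ± 112 scaled CPM. It did not differ beyond its spread (101 to 311) from the Aβ42 and Aβ40 fibril-treated astrocytes, at 176 ± 23 and 171 ± 19.4. Aβ40 fibril-treated microglia followed at 72.2 ± 7.52, then control astrocytes, whose range of 21.6 to 69.1 overlapped it, and control microglia last. The highest Cebpd levels were in Aβ40 and Aβ42 fibril-treated astrocytes, 392 ± 65.4 and 363 ± 78.5, which overlapped. Among microglia the order was Aβ42 fibril-treated (103 ± 28.7), Aβ40 fibril-treated and control, with no overlap. Control astrocytes, at 31.9 to 163, overlapped all 3 microglia groups. For Cebpa, control microglia stood above all other groups, and Aβ40 fibril-treated microglia were lowest at 10.4 ± 1.04, a range that overlapped the Aβ42 fibril-treated microglia at 24.3 ± 14.2, while the 3 astrocyte groups overlapped one another at means of 21.8 to 27.4. For Cebpg the 3 microglia groups overlapped one another at means of 94.4 to 102 and lay above the 3 astrocyte groups.

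**Figure D1:**
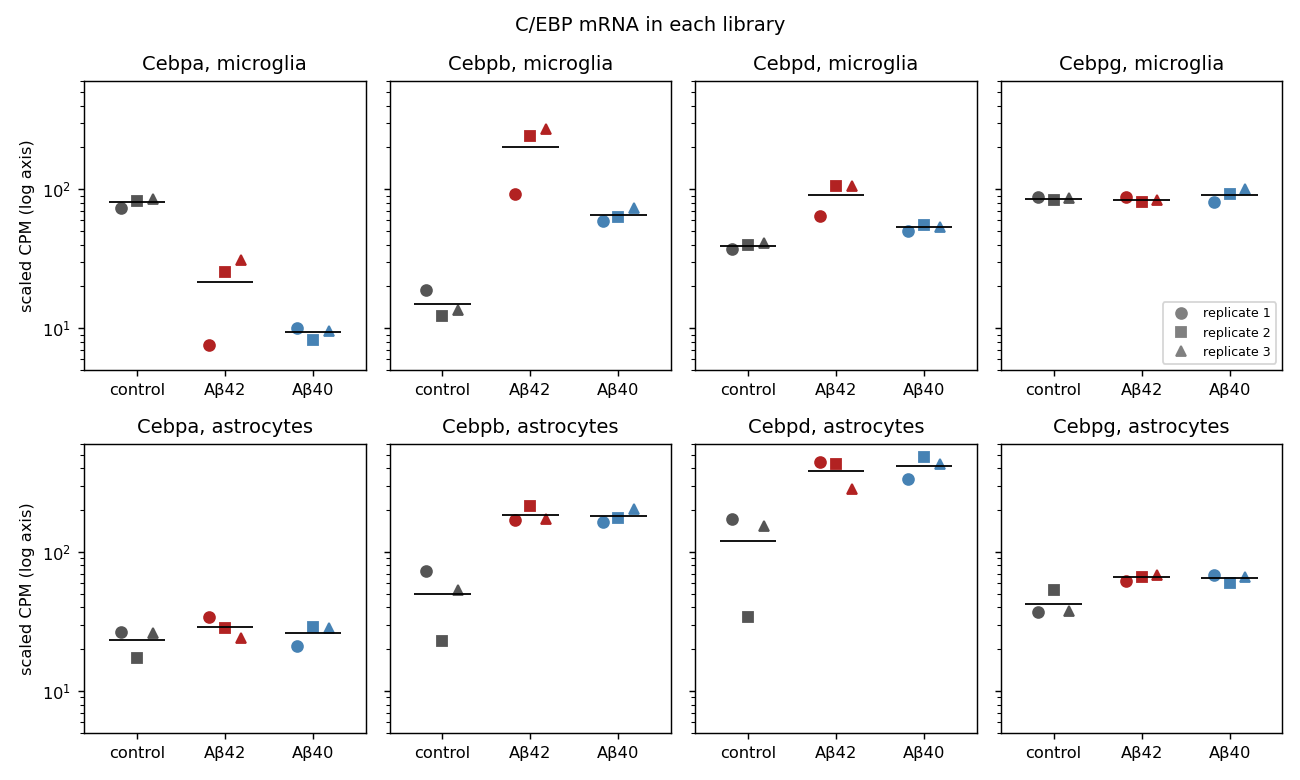
Scaled CPM (TMM-scaled within each cell type, log axis) of Cebpa, Cebpb, Cebpd and Cebpg in each library of microglia (top) and astrocytes (bottom), with 1 symbol for each replicate number and a line at the group mean. Cebpb in microglia runs from 12.3 to 18.8 in controls up to 92.3 to 272 with Aβ42 fibrils, while Cebpa runs the other way and Cebpg stays between 80.5 and 101.

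In microglia, Cebpb rose and Cebpa fell with both fibrils. With Aβ42 fibrils 3 of the 4 members differed from control, beside 53.7% of the 10837 genes tested, and with Aβ40 fibrils 2 of 4, beside 41%. With 4 members these counts cannot be told from the shares of all genes. The comparisons share their control libraries.

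Cebpb, the inflammation-induced member, was at 18.8, 12.3 and 13.6 scaled CPM in the control microglia (replicates 1 to 3). It was at 92.3, 242 and 272 with Aβ42 fibrils and at 58.8, 63.2 and 73 with Aβ40 fibrils. Every fibril library lay above every control library, and the lowest Aβ42 library lay above the highest Aβ40 library. The rise was 13.6-fold with Aβ42 fibrils, a log2 change of 3.77 (SE 0.34, 95% interval 3.02 to 4.51, edgeR adjusted p = 2.01e-06), and 1.73% of the tested genes rose by more. With Aβ40 fibrils the rise was 4.27-fold, a log2 change of 2.09 (SE 0.34, 95% interval 1.34 to 2.85, edgeR adjusted p = 3.77e-04), and 3.76% of the tested genes rose by more. Cebpb was chosen on the difference between these Aβ42 and Aβ40 libraries, so neither test is independent of the choice. Without Aβ42 replicate 1 the log2 changes of Cebpb were 4.07 (SE 0.13) and 2.07 (SE 0.14).

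Cebpa, the myeloid member, was at 73.3, 82.2 and 85.8 scaled CPM in control microglia. It was at 7.59, 25.5 and 31.2 with Aβ42 fibrils and at 10.1, 8.27 and 9.64 with Aβ40 fibrils. All fibril libraries lay well below all controls. The value in Aβ42 replicate 1 rests on 19 counts, and was lower than in each Aβ40 library. The fall was 3.37-fold with Aβ42 fibrils (log2 -1.75, SE 0.27, edgeR adjusted p = 2.05e-04) and 8.64-fold with Aβ40 fibrils (log2 -3.11, SE 0.34, edgeR adjusted p = 1.21e-05). Of the tested genes, 4% fell by more with Aβ42 fibrils and 1.44% with Aβ40 fibrils. Without Aβ42 replicate 1 the log2 changes were -1.51 and -3.11.

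The summed level of the 13 microglia markers was lower with both fibrils than in control microglia. It was 7140 to 8500 CPM in controls, 2100 to 2470 with Aβ42 and 2380 to 2490 with Aβ40 fibrils. Cebpa was lower in the same libraries. Among the fibril libraries the sum spanned only 2100 to 2490 CPM, a range too narrow to be set against Cebpa, which spanned 7.59 to 31.2. Aβ42 replicate 1 had Cebpa at 7.59 and a sum of 2470, and Aβ42 replicate 2 had 25.5 and 2100. For each 1000 counts on these markers, control microglia had 9.87 to 11.5 counts of Cebpa, Aβ40 fibril-treated microglia 3.48 to 4.12, and Aβ42 fibril-treated microglia 3.08, 12.1 and 12.8. The part of the markers in the fall of Cebpa was not tested, and in such bulk samples fewer cells of a type and less RNA per cell cannot be told apart.

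Cebpd, the acute-phase member, was at 37.4, 39.6 and 40.8 scaled CPM in control microglia, at 63.9, 105 and 105 with Aβ42 fibrils, and at 50.1, 55.6 and 53.7 with Aβ40 fibrils. No group overlapped another. Cebpd rose with Aβ42 fibrils by 2.37-fold (log2 1.25, SE 0.16, edgeR adjusted p = 4.94e-05). That log2 change was 1.14 to 1.42 with each of the 9 microglia libraries left out in turn. With Aβ40 fibrils the log2 difference of 0.44 (SE 0.17, 95% interval 0.06 to 0.81) did not pass (edgeR adjusted p = 0.061). It passed without Aβ42 replicate 1, which enters only the shared estimate of spread (log2 0.44, SE 0.09, edgeR adjusted p = 6.43e-04). With all libraries, 8.4% of the tested genes had a larger log2 difference than Cebpd with Aβ42 fibrils and 21.7% with Aβ40 fibrils.

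Cebpg, the partner of ATF4, was at 88.2, 83.2 and 85.9 scaled CPM in control microglia, at 87.9, 80.7 and 83.6 with Aβ42 fibrils and at 80.5, 92.9 and 101 with Aβ40 fibrils. The 3 groups overlapped. The log2 differences from control were -0.03 (95% interval -0.26 to 0.20, edgeR adjusted p = 0.796) and 0.09 (95% interval -0.15 to 0.32, edgeR adjusted p = 0.552), and -0.07 and 0.08 without Aβ42 replicate 1.

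**Figure D2:**
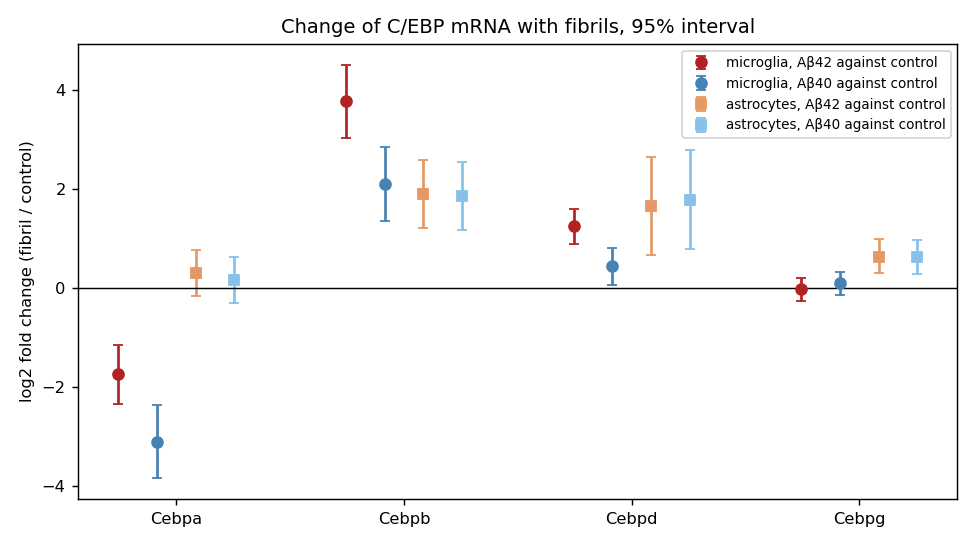
Log2 fold change of fibril-treated over control cells for each C/EBP gene, with the 95% interval of the fit. Circles are microglia and squares astrocytes, and Cebpa lies below 0 in microglia (-1.75 and -3.11) and near 0 in astrocytes, where the other 3 genes lie above 0.

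Between the fibrils in microglia, the contrast on which Cebpb was chosen, the fitted level of Cebpb was 3.19-fold higher with Aβ42 than with Aβ40 fibrils (log2 1.67). Cebpa was 2.56-fold higher (log2 1.36) and Cebpd 1.75-fold higher (log2 0.81) with Aβ42 fibrils, and the log2 difference of Cebpg was -0.12. The libraries of the fibril groups did not overlap for Cebpb and Cebpd and overlapped for Cebpa and Cebpg. Of all tested genes 20.3% were called in this contrast in edgeR, which is a measure other than overlap. The share of all genes without overlap was not computed. Aβ42 replicate 1 was the Aβ42 library nearest to the Aβ40 libraries for Cebpb and Cebpd. Without it the log2 differences were 2.00 for Cebpb, 1.60 for Cebpa, 0.98 for Cebpd and -0.15 for Cebpg.

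**Figure D3:**
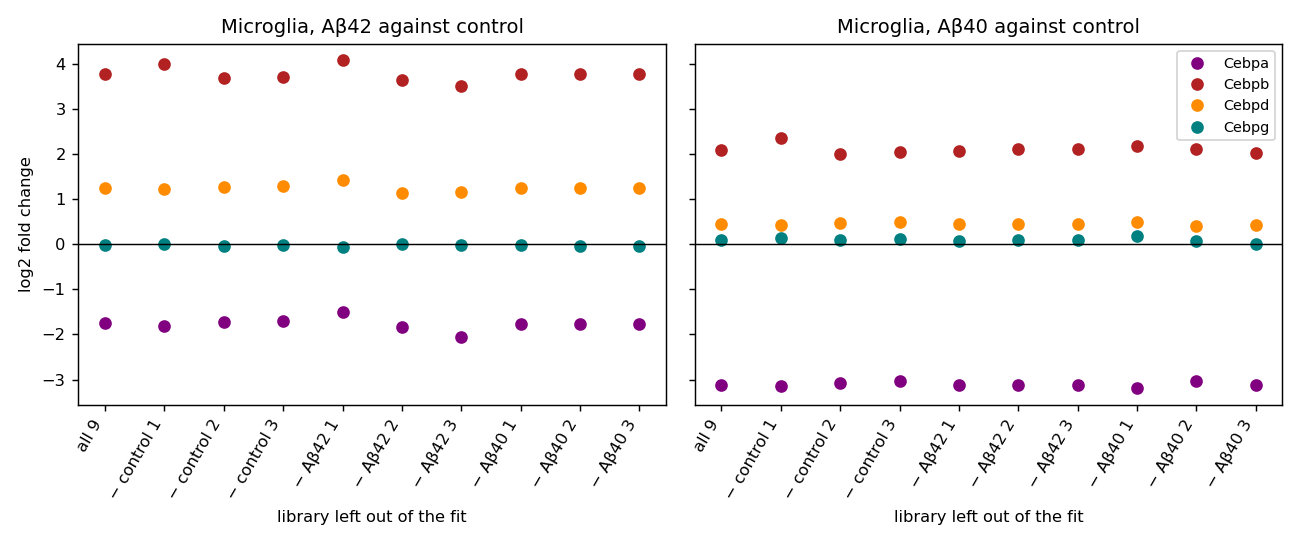
Log2 fold change in microglia with Aβ42 (left) and Aβ40 fibrils (right) for each C/EBP gene, with all 9 libraries and with each library left out in turn. Cebpb stays between 3.51 and 4.07 and Cebpa between -2.05 and -1.51 with Aβ42 fibrils, and between 2.00 and 2.34 and -3.19 and -3.02 with Aβ40 fibrils.

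In astrocytes, Cebpb, Cebpd and Cebpg rose with both fibrils and Cebpa did not pass the test. With each fibril 3 of the 4 members differed from control, beside 37% of the 11690 genes tested with Aβ42 and 33.3% with Aβ40 fibrils. Control replicate 2 was the lowest control for Cebpa, Cebpb and Cebpd and the highest for Cebpg.

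Cebpb was at 73.4, 23 and 52.9 scaled CPM in the control astrocytes, at 171, 214 and 172 with Aβ42 fibrils, and at 163, 175 and 205 with Aβ40 fibrils. The fibril groups overlapped each other and lay above all controls. The rise was 3.73-fold with Aβ42 (log2 1.90, SE 0.31, edgeR adjusted p = 6.67e-04) and 3.64-fold with Aβ40 fibrils (log2 1.86, SE 0.31, edgeR adjusted p = 8.56e-04). Without control replicate 2 the log2 changes were 1.59 and 1.55, and both passed.

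Cebpd was at 173, 34 and 154 scaled CPM in the controls, at 440, 426 and 283 with Aβ42 fibrils, and at 335, 482 and 430 with Aβ40 fibrils. All fibril libraries exceeded all controls, and control replicate 2 was far below its group. The log2 changes were 1.66 (SE 0.45, edgeR adjusted p = 0.0134) and 1.78 (SE 0.45, edgeR adjusted p = 0.0104). Without control replicate 2 they were 1.23 (SE 0.19) and 1.35 (SE 0.19), with edgeR adjusted p of 1.46e-04 and 7.73e-05.

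Cebpg was at 37, 53.1 and 37.7 scaled CPM in the controls, at 62.1, 66.5 and 68.8 with Aβ42 fibrils, and at 68.6, 60.3 and 66.5 with Aβ40 fibrils. The fibril libraries lay above the controls. The rise was 1.55-fold with Aβ42 fibrils (log2 0.63, SE 0.16, edgeR adjusted p = 0.00856) and 1.53-fold with Aβ40 fibrils (log2 0.62, SE 0.16, edgeR adjusted p = 0.0106). Without control replicate 2 the log2 changes were 0.82 and 0.80.

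Cebpa in astrocyte libraries was at 26.4, 17.2 and 26.2 scaled CPM in controls, 34.2, 28.5 and 24 with Aβ42 fibrils, and 21, 29 and 28.4 with Aβ40 fibrils. The groups overlapped, with log2 differences from control of 0.30 (95% interval -0.16 to 0.77, edgeR adjusted p = 0.291) and 0.16 (95% interval -0.30 to 0.62, edgeR adjusted p = 0.6), and 0.15 and 0.01 without control replicate 2. The microglia markers summed to a lower level in the fibril-treated astrocyte libraries, as given above. For each 1000 counts on the microglia markers, Cebpa had 37.4 to 44.9 counts in control astrocytes and 162 to 268 in fibril-treated astrocytes, both above the 3.08 to 12.8 of the microglia libraries. The ratio does not give Cebpa per microglial cell, since fewer cells and less marker RNA per cell cannot be told apart. Which cells the Cebpa mRNA came from was not tested.

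Between Aβ42 and Aβ40 fibrils in astrocytes, 0 of the 4 members passed in edgeR and 0 in DESeq2, and the 95% interval of each included 0, so that 0 had an unadjusted p under 0.05. Of all tested genes 0.0855% were called, 10 genes. The log2 difference of Cebpb was 0.04 (95% interval -0.62 to 0.69), and that of Cebpd -0.12 (95% interval -1.08 to 0.84). For Cebpa it was 0.14 (95% interval -0.30 to 0.59) and for Cebpg 0.02 (95% interval -0.32 to 0.35). These intervals do not show that the fibrils act alike on Cebpd, where a difference of up to 1.08 on the log2 scale was within the interval.

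The change with fibrils was set against the cell type as an interaction, fitted on all 18 libraries. With Aβ42 fibrils 3 of the 4 members differed in their change between microglia and astrocytes, beside 37.3% of the 11581 genes, and with Aβ40 fibrils 2 of 4, beside 32.5%. The log2 change of Cebpa was lower in microglia by an interaction of -2.09 with Aβ42 (SE 0.39, edgeR adjusted p = 3.66e-04) and -3.29 with Aβ40 fibrils (SE 0.43, edgeR adjusted p = 9.43e-06). For Cebpb the interaction was 1.86 with Aβ42 fibrils (SE 0.49, edgeR adjusted p = 0.00529), a test that uses the Aβ42 microglia libraries on which Cebpb was chosen. With Aβ40 fibrils, which the choice also used, it was 0.22 (95% interval -0.82 to 1.25, edgeR adjusted p = 0.779). Cebpd had interactions of -0.42 (95% interval -1.48 to 0.63, edgeR adjusted p = 0.546) and -1.36 (95% interval -2.44 to -0.28, edgeR adjusted p = 0.0504). The Aβ40 value of Cebpd was -0.93 without astrocyte control replicate 2 and passed (edgeR adjusted p = 0.0124), and the Aβ42 value was then 0.02. The Aβ40 value also passed without astrocyte control replicate 1 (-1.66) or 3 (-1.58), astrocyte Aβ40 replicate 1 (-1.49) or microglia Aβ42 replicate 1 (-1.36). Cebpg had interactions of -0.67 (SE 0.19, edgeR adjusted p = 0.00897) and -0.55 (SE 0.19, edgeR adjusted p = 0.035). The Aβ40 interaction of Cebpg no longer passed when any of 8 of the 18 libraries was left out in turn. They were control replicates 1 and 3 of each cell type, astrocyte Aβ40 replicates 1 and 3 and microglia Aβ40 replicates 1 and 2, with values of -0.57 to -0.44. The Aβ42 interactions without microglia Aβ42 replicate 1 were -1.80 for Cebpa, 2.20 for Cebpb, -0.23 for Cebpd and -0.69 for Cebpg. Without astrocyte control replicate 2 the Aβ42 interactions were -1.89 for Cebpa, 2.19 for Cebpb and -0.86 for Cebpg, and the Aβ40 interactions -3.13 for Cebpa, 0.53 for Cebpb and -0.74 for Cebpg.

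Ratios of counts within a library do not depend on its scaling. Those in microglia use the Cebpb counts of the fibril libraries on which Cebpb was chosen, so they are no independent evidence. In control microglia there were 0.257, 0.15 and 0.158 counts of Cebpb for each count of Cebpa. With Aβ42 fibrils there were 12.2, 9.5 and 8.74, and with Aβ40 fibrils 5.81, 7.65 and 7.57. Cebpb had fewer counts than Cebpa in each control library and more in each fibril-treated library, and Aβ42 replicate 1 had the highest ratio. The mean log2 ratio was -2.45 ± 0.42 in controls, 3.31 ± 0.23 with Aβ42 and 2.78 ± 0.22 with Aβ40 fibrils (SD, n = 3), differences of 5.76 and 5.22 from control. In astrocytes the ratio was 2.78, 1.33 and 2.02 in controls, 5, 7.51 and 7.17 with Aβ42 and 7.78, 6.01 and 7.21 with Aβ40 fibrils, with log2 differences of 1.72 and 1.83. Each of these 4 differences had an exact permutation p of 0.1 (two-sided, n = 3 against 3), the smallest that 3 libraries against 3 can give, and 0.12 after adjustment over the 12 ratio comparisons made.

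The ratio of Cebpd to Cebpb was lower with fibrils in all microglia libraries and overlapped the controls in astrocytes. Its log2 differences from control were -2.45 and -1.70 in microglia with Aβ42 and Aβ40 fibrils (exact permutation p = 0.1 for each, n = 3 against 3). In astrocytes they were -0.09 (exact permutation p = 0.8, n = 3 against 3) and 0.08 (exact permutation p = 0.9, n = 3 against 3). The control astrocytes had ratios of 2.36, 1.48 and 2.92, and the fibril-treated astrocytes 1.64 to 2.76. The ratio of Cebpg to Cebpb lay below the controls in all fibril libraries, with log2 differences of -3.66 and -2.05 in microglia and -1.40 and -1.38 in astrocytes (exact permutation p = 0.1 for each, n = 3 against 3). The adjusted value was 0.12 for each ratio comparison at 0.1. Without astrocyte control replicate 2, whose ratio of Cebpg to Cebpb was 2.31 against 0.504 and 0.712 in the other controls, the astrocyte differences were -0.75 and -0.73.

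**Figure D4:**
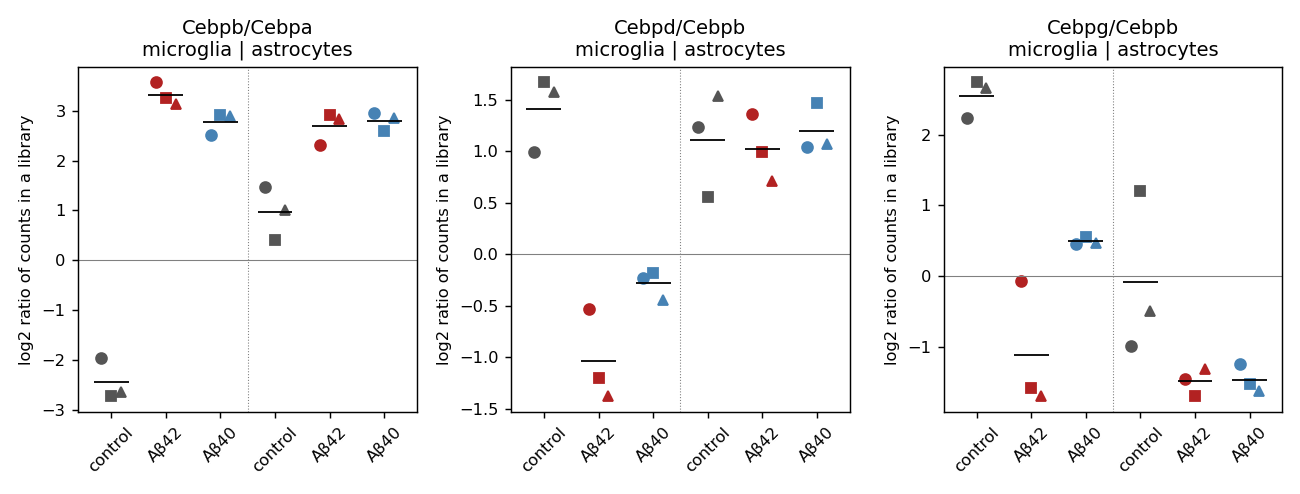
Log2 ratio of the counts of Cebpb to Cebpa, Cebpd to Cebpb and Cebpg to Cebpb within each library, microglia left and astrocytes right of the dotted line, with a line at each group mean. Cebpb to Cebpa lies at -2.45 on average in control microglia and above 2 in all 12 fibril-treated libraries.

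Of the relatives, Cebpe, the granulocyte member, had 0 to 2 counts in the astrocyte libraries and 0 to 14 in the microglia libraries and was not tested. Ddit3, which encodes the stress-induced C/EBP relative CHOP, rose in both cell types. It was at 68.7, 48.6 and 68.1 scaled CPM in control microglia, 141, 157 and 165 with Aβ42 and 136, 118 and 143 with Aβ40 fibrils. The log2 changes were 1.32 and 1.09 in microglia (edgeR adjusted p = 8.53e-06 and 6.13e-05) and 2.12 and 1.81 in astrocytes (edgeR adjusted p = 3.96e-07 and 1.36e-06). Its change was smaller in microglia, with interactions of -0.80 and -0.73 (edgeR adjusted p = 0.0029 and 0.00683). Cebpz, which shares the name but is no bZIP protein, did not pass in the fibril comparisons tested with all libraries and TMM scaling. Its log2 difference in Aβ42 fibril-treated microglia was -0.30 (edgeR adjusted p = 0.0832), -0.32 (edgeR adjusted p = 0.0409) when scaled by library totals, and -0.46 (edgeR adjusted p = 3.44e-04) without Aβ42 replicate 1. In Aβ42 fibril-treated astrocytes it was 0.10 (edgeR adjusted p = 0.741), and 0.40 (edgeR adjusted p = 0.0154) without control replicate 2.

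Genes that C/EBP proteins are known to act on or with were taken as 5 lists, without the 4 members. Beside their counts, 2935 of all tested genes rose and 2886 fell in microglia with Aβ42 fibrils (53.7% called) and 2125 and 2319 with Aβ40 fibrils (41%). In astrocytes 1933 rose and 2388 fell with Aβ42 (37%) and 1739 and 2149 with Aβ40 fibrils (33.3%). Of 23 tested inflammatory and acute-phase targets of C/EBPβ and C/EBPδ, 19 rose and 1 fell in microglia with Aβ42 fibrils and 20 rose and 1 fell with Aβ40 fibrils. In astrocytes 22 rose and 1 fell with Aβ42, and 21 rose and 1 fell with Aβ40 fibrils. The median log2 change of the list was 4.56, 5.29, 6.18 and 6.11 in that order, beside medians within 0.01 of 0 over all genes tested. Genes of this list with low counts in controls passed the filter only through the fibril groups and so had to differ, and these counts and medians lend no support. With at least 10 counts required in every library, 15 genes were left in microglia, of which 12 and 13 rose with Aβ42 and Aβ40 fibrils, and 9 in astrocytes, of which 8 and 7 rose. Without microglia Aβ42 replicate 1, 2 genes fell with Aβ42 fibrils in microglia. In microglia with Aβ42 fibrils the granulocyte growth factor Csf3 rose by 7.87 on the log2 scale (SE 0.24), the neutrophil chemokine Cxcl2 by 6.31 (SE 0.17) and Il1b by 4.27 (SE 0.14). In astrocytes with Aβ42 fibrils complement C3 rose by 6.18 (SE 0.15), the prostaglandin synthase Ptges by 8.37 (SE 0.20) and the pentraxin Ptx3 by 4.34 (SE 0.14). Ptges had only 1 to 7 counts in the control astrocytes, against 1236 to 2217 with Aβ42 fibrils. It is thus among the genes that had to differ, and the size of its rise rests on few control counts. The gene that fell in all 4 comparisons was the plasminogen activator Plau, with log2 changes of -3.70 and -4.44 in microglia and -1.93 and -1.86 in astrocytes.

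Of 21 tested bZIP partners and other regulators of C/EBP, 13 rose and 1 fell in microglia with Aβ42 fibrils, and 10 rose and 4 fell with Aβ40 fibrils. In astrocytes 9 rose and 2 fell with Aβ42 and 9 rose and 3 fell with Aβ40 fibrils. The median log2 differences were 0.78, 0.57, 0.38 and 0.44. Of all genes tested, 53.7%, 41%, 37% and 33.3% were called in these comparisons, in the same order. The 4 that fell in microglia with Aβ40 fibrils became 2 without control replicate 3, Aβ40 replicate 2 or Aβ40 replicate 3. In microglia the AP-1 subunit Fosl1 rose by 4.89 and 4.66 on the log2 scale, the pseudokinase Trib3 by 3.45 and 2.80, and Batf by 1.95 and 1.94. In astrocytes Runx1 rose by 2.63 and 2.32 and Fosl2 by 2.40 and 1.91. Spi1, which encodes the myeloid factor PU.1, fell in astrocyte libraries by log2 -2.14 and -2.82, together with the microglia markers there, and in microglia with Aβ40 fibrils by log2 -0.47.

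Of 12 tested myeloid targets of C/EBPα in microglia, 5 rose and 5 fell with Aβ42 fibrils, and 4 rose and 6 fell with Aβ40 fibrils, with median log2 differences of -0.24 and -0.37, beside 53.7% and 41% of all genes called. Those that fell included Csf1r, the receptor for colony-stimulating factor 1, by log2 -3.87 and -3.90, the transcription factor Irf8 by -4.26 and -3.71, and the granulocyte growth factor receptor Csf3r by -5.09 and -4.07. The co-receptor Cd14 rose by 1.25 and 1.21 and the integrin Itgam by 0.90 and 1.04. Csf1r and Itgam are also among the microglia markers. Of 13 tested in astrocytes, 2 rose and 5 fell with Aβ42 and 1 rose and 6 fell with Aβ40 fibrils, with median log2 differences of -0.52 and -0.84, and 1 rose with Aβ42 fibrils without Aβ42 replicate 2. Of 7 tested adipogenic and lipid targets of C/EBPα in microglia, 1 rose and 4 fell with Aβ42 and 1 rose and 6 fell with Aβ40 fibrils, with median log2 differences of -1.47 and -2.35. Lipoprotein lipase, Lpl, fell by log2 -6.98 (SE 0.38) and -7.51 (SE 0.40), while the fatty acid binding protein Fabp5 rose by 1.44 and 0.78. Pparg of this list had 161 to 278 counts in control microglia, 1 to 14 with Aβ42 and 0 to 2 with Aβ40 fibrils. Such genes passed the filter only through the controls and so had to fall, and these counts and medians lend no support. With at least 10 counts required in every microglia library, 5 genes were left, of which 2 fell with Aβ42 fibrils. The count of 6 that fell with Aβ40 fibrils did not move by over 1.5 times under this filter. In astrocytes 2 of 6 rose and 1 fell with each fibril, beside 37% and 33.3% of all genes called, and 2 fell with Aβ42 fibrils without control replicate 2. With no filter 2 and 3 fell. Lpl fell there by log2 -2.16 and -2.07.

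Of 17 tested stress-response targets of ATF4 with C/EBPγ in microglia, 11 rose and 3 fell with Aβ42 fibrils and 6 rose and 2 fell with Aβ40 fibrils, with median log2 differences of 0.57 and 0.40. Of all genes tested 53.7% and 41% were called, and the Aβ40 counts of the list are near that share. The cystine transporter Slc7a11 rose by 6.38 (SE 0.24) and 6.20 (SE 0.24) on the log2 scale, and its partner Slc3a2 by 1.40 and 0.98, while the serine synthesis enzyme Phgdh fell, by log2 -0.74 with Aβ42 fibrils. Of 19 tested in astrocytes, 4 rose and 3 fell with Aβ42 and 3 rose and 5 fell with Aβ40 fibrils, with median log2 differences of -0.06 and -0.18, near the shares of all genes called (37% and 33.3%). With Aβ42 fibrils the falling genes were 5 with library totals and 7 with upper-quartile scaling, and 2 rose without control replicate 3. With Aβ40 fibrils 3 fell without Aβ40 replicate 1. In astrocytes Mthfd2 rose by 1.02 and 0.49. Its Aβ40 rise lost the call with the replicate block, with only the groups compared and without Aβ40 replicate 3. Phgdh fell there by log2 -1.33 and -1.20, and the next enzyme of that pathway, Psat1, by -1.67 and -1.48. Without microglia Aβ42 replicate 1 the list had 9 rising and 4 falling genes with Aβ40 fibrils in microglia. Without control replicate 2 it had 6 and 8 falling genes in astrocytes with Aβ42 and Aβ40 fibrils, and the bZIP list 4 falling genes with Aβ42 fibrils.

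**Figure D5:**
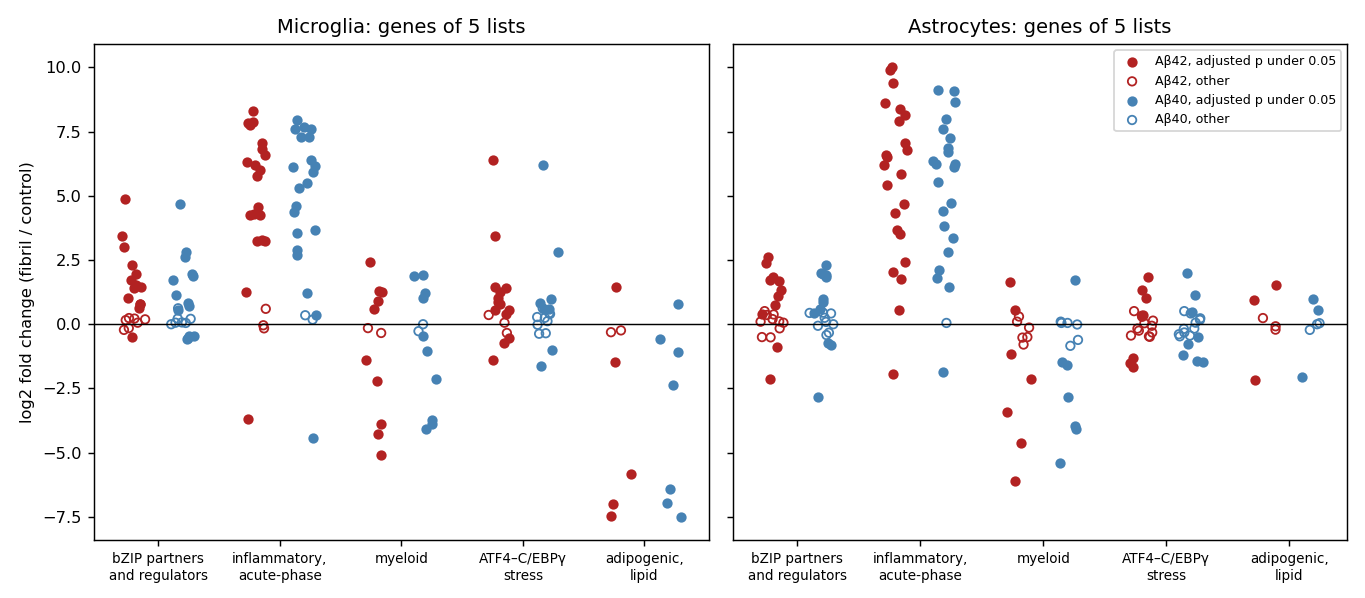
Log2 fold change of each tested gene of the 5 lists in microglia (left) and astrocytes (right), with Aβ42 in red and Aβ40 in blue, and filled points where the adjusted p was under 0.05. The inflammatory and acute-phase list has medians of 4.56 to 6.18, and the other 4 lists hold genes on both sides of 0.

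Over the 9 libraries of a cell type, log2 scaled CPM of Cebpb and Cebpd were correlated at r = 0.95 in microglia and 0.96 in astrocytes, and those of Cebpa and Cebpb at -0.57 and 0.65. These are descriptions over libraries that share 3 groups, so they largely restate the group differences. By the same measure the 3 genes most like Cebpb in microglia were Cct3 (r = 0.995), Dusp8 (0.994) and H1f0 (0.993), and in astrocytes RT1-CE10 (0.995), Hsd11b2 (0.995) and Slco5a1 (0.992). Those most like Cebpa in microglia were Epn1 (0.996), Grk6 (0.990) and Fcgrt (0.990). For Cebpd they were Pfkl (0.991), Tm4sf19 (0.991) and Rer1 (0.989) in microglia and Trim47 (0.999), Gfod2 (0.995) and Cyba (0.994) in astrocytes. Ranking by Spearman's rho kept 0 or 1 of the 3 genes for each member and cell type.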

How the data were processed

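RNA of 18 libraries was sequenced after stranded mRNA library preparation. The submitters' processing notes name the build rn5 and the tools STAR, Salmon and DESeq2, with no versions. The authors deposited 1 table of raw counts for each library, whole numbers of reads per gene symbol, not normalized, with the counts on no gene or on more than 1 gene listed apart. These off-gene counts (21.7% to 34.2% of a library) were left out. The strand setting of the counting is not given in the sources used here.

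Depth was 2271834 to 22274367 counts on genes, where 3 counts correspond to 0.13 to 1.38 CPM. Counts were scaled by TMM and filtered by filterByExpr, and tested with the quasi-likelihood test of edgeR 4.0.16 in R 4.3.3, two-sided, with p-values adjusted by Benjamini-Hochberg across every gene tested and a threshold of 0.05. The 9 libraries of a cell type were fitted together without covariates. Interactions and the comparison of control cells were fitted on all 18 libraries and 16704 shared symbols. The SE is the log2 change divided by the square root of F, and intervals are 95%. Within-library ratios of counts (pseudocount 0.5) were compared by exact permutation tests with SciPy, and promoter motifs were counted in RefSeq sequences of GRCr8 (27457 promoters). The test was checked on simulated data.

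The members, the 5 lists and the alternatives were chosen with earlier results of these data known. Of each list, at most 3 rising and 3 falling genes with the smallest p could be named in a comparison, and for each member the 3 genes with the highest Pearson's r. Genes with a group at or under 3 counts were not given a fold. Batf2, Hlf, Saa3 and Il6ra were not among the symbols of either cell type, Cop1 and Scd not among those of microglia. Alternatives were DESeq2 1.42.0 (size factors and Wald test), library totals, upper-quartile scaling, other filters, only the groups compared, a block on replicate number, and omission of each library in turn. Leaving out both libraries that stood apart was added after the data were seen.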

Additional observations from a re-analysis of the deposited data

Results flagged for a closer look

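The change of several genes with fibrils differed between microglia and astrocytes by the interaction test in edgeR, given here as microglia minus astrocytes on the log2 scale. With Aβ42 fibrils the interactions past the threshold were -2.09 for Cebpa, 1.86 for Cebpb, -0.67 for Cebpg and -0.80 for the relative Ddit3. With Aβ40 fibrils they were -3.29 for Cebpa, -0.55 for Cebpg and -0.73 for Ddit3. The Aβ40 interaction of Cebpg lost its call under 5 other settings (DESeq2 size factors, library totals, upper-quartile scaling, the replicate block and only the groups compared) and with any of 8 libraries left out. Cebpb was chosen on the microglia libraries that its interaction uses. The summed level of the microglia markers was lower with fibrils in the cultures of both cell types, and its part in these differences was not tested. Without microglia Aβ42 replicate 1 and astrocyte control replicate 2, a setting added after the data were seen, the Aβ42 interactions were -1.65 for Cebpa, 2.50 for Cebpb and -0.87 for Cebpg, and the Aβ40 interactions were -3.14 for Cebpa and -0.74 for Cebpg.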

How the results depend on the processing

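Of 596 values of the members under alternatives, over the fibril against control, cell type and interaction tests, 564 kept their direction and side of the threshold, 14 lost and 14 gained the call, and 4 changed sign without a call. The difference of Cebpd between Aβ40 fibrils and control in microglia passed with upper-quartile scaling (0.48), with DESeq2's Wald test (0.45), with the replicate block (0.44) and with only the groups compared (0.45), and was 0.40 to 0.49 with a library left out. The Aβ42 interaction of Cebpg lost its call with upper-quartile scaling (-0.50), under which Cebpg in microglia with Aβ42 fibrils was 0.03. The Aβ40 interaction of Cebpg lost its call with DESeq2 size factors (-0.47), library totals (-0.50), upper-quartile scaling (-0.38), the replicate block (-0.56) and only the groups compared (-0.53), and was -0.74 to -0.44 with a library left out. The Aβ40 interaction of Cebpd passed with library totals (-1.33), DESeq2's Wald test (-1.30), no filter (-1.39) and without both libraries that stood apart (-0.93), and was -1.66 to -0.93 with a library left out. The Aβ42 interaction of Cebpd was -0.70 to 0.02 with a library left out and 0.20 without both, and the Aβ40 interaction of Cebpb was -0.09 to 0.53. In astrocytes the differences between the fibrils ranged over -0.08 to 0.14 for Cebpb, -0.26 to 0.05 for Cebpd and -0.04 to 0.07 for Cebpg with a library left out.

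The 2198 genes called between the fibrils in microglia became 754 with the replicate block, 106 with only the groups compared, 6004 without Aβ42 replicate 1, and 99 at the fewest, without Aβ42 replicate 3. They were 1048 and 1204 without control replicates 1 and 3, 121 without Aβ42 replicate 2, and 127, 109 and 153 without Aβ40 replicates 1, 2 and 3. The 10 genes in astrocytes became 141 with DESeq2, 5 with at least 10 counts in every library, 0 with the replicate block, 265 with only the groups compared, and 0 to 222 with a library left out, the 222 without control replicate 2 and 19 without control replicate 3. Leaving out replicate 1 of the Aβ42 group gave 4, replicate 1 of the Aβ40 group 1, and replicate 2 or 3 of either fibril group 0. The 4314 genes of the Aβ42 interaction became 6531 without both libraries that stood apart and 3723 to 5444 with a library left out. The causes were not tested. Cebpz in astrocytes with Aβ42 fibrils, 0.10, was -0.01 with upper-quartile scaling and -0.03 to 0.40 with a library left out, and its Aβ40 interaction was -0.20 to 0.26, and -0.20 without both libraries that stood apart. Of 1660 list counts under alternatives, 81 moved by over 1.5 times.

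The replicate numbers were not taken as pairs, since deviations of same-numbered libraries correlated above 0.1 in only 2 of 9 astrocyte and 1 of 9 microglia pairs. The block left 30 of 32 tested member values on their side of the threshold. In astrocytes, deviations of differently numbered libraries correlated from -0.46 to 0.53. Control replicate 2 correlated at 0.53 with Aβ42 replicate 3 and at 0.49 with Aβ40 replicate 1. Aβ42 replicate 3 and Aβ40 replicate 1 correlated at 0.51. Each of these libraries was the lowest of its group for Cebpa and Cebpd and the highest for Cebpg. What these libraries share was not tested, and no fit took it into account. Depth limits Cebpa most, with 19 to 42 counts in Aβ42 replicate 1 and the Aβ40 libraries of microglia.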
